A study of Mus musculus with 9 samples.

Results

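Myelin and oligodendrocyte genes were followed in RNA-seq of mouse cerebral cortex after experimental stroke. The set held the 9 genes with the symbols Mbp, Mog, Mag, Mobp, Cnp, Cldn11, Olig1, Olig2 and Pdgfra, chosen by symbol, out of 52550 genes in the deposited tables. These genes have 49 annotated transcripts there, out of 131100. The mice were male C57BL/6N animals of 9 to 12 weeks in 3 groups of 3 libraries. In the knockdown group (replicates 2, 3 and 4) a locked nucleic acid (LNA) antisense oligonucleotide against the enhancer RNA eRNA_06347 was given through the lateral ventricles, and the middle cerebral artery was then occluded with a filament (MCAO) for 1 h and reperfused for 6 h. In the control oligo group (replicates 1, 2 and 3) the same MCAO and reperfusion followed a negative control oligonucleotide. In sham mice (replicates 1, 2 and 3) the neck was opened but no filament was placed, and the labels name no oligonucleotide for them. The labels give infarcted ipsilateral cortex as the tissue. They give neither the cells that take up the oligonucleotide nor whether each library is 1 animal, so p-values measure the spread between these libraries. The laboratory took the sham libraries from a data set it had made before, so stroke, oligonucleotide and data set cannot be told apart in any comparison with sham. The level of eRNA_06347 itself was not analysed here.

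Oligodendrocytes wrap axons of the central nervous system in myelin, a stack of compacted membrane. Mbp (myelin basic protein) holds the cytoplasmic faces of that membrane together, and Mobp is a further basic protein of compact myelin. Mog is a glycoprotein of the outermost myelin surface, Mag an adhesion protein of the innermost layer facing the axon, Cnp a phosphodiesterase of the non-compacted cytoplasmic channels and Cldn11 the claudin of myelin tight junctions. Olig1 and Olig2 are basic helix-loop-helix transcription factors of the oligodendrocyte lineage, and Pdgfra is the receptor through which platelet-derived growth factor A acts on oligodendrocyte precursors. Precursors lose Pdgfra as they differentiate and then switch on the myelin genes.

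The Mobp promoter is printed because its sequence stands apart among these genes, with the Cnp and Mog promoters beside it for comparison. The stretches run from 250 bases before to 50 bases after the gene start, 5′ to 3′ on the gene's strand, from RefSeq (GRCm38.p6). Capitals mark ACAAAG on either strand (CTTTGT in reverse), a core bound by SOX-family factors that was chosen with the promoter sequences in view.
Mobp promoter (chr9:120149492-120149791, plus strand): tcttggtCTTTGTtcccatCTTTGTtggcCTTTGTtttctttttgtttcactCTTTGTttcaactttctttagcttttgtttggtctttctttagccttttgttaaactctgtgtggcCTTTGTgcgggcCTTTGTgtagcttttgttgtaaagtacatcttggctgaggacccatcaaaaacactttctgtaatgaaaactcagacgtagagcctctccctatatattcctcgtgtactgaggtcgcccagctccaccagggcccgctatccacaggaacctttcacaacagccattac
Cnp promoter (chr11:100574689-100574988, plus strand): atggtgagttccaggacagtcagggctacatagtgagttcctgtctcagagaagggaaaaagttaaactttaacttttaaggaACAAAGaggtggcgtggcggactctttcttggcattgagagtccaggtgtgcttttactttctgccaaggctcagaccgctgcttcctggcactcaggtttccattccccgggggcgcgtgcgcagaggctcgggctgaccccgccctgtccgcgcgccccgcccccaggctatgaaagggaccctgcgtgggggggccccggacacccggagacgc
Mog promoter (chr17:37023349-37023648, minus strand): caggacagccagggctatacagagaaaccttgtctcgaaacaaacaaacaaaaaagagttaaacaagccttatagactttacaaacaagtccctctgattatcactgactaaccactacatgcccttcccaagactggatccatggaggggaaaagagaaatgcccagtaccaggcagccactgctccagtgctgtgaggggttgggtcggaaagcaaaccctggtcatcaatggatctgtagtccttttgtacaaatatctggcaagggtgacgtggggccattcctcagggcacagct
The Mobp promoter held 6 matches, Cnp 1 and Mog 0. Of 32851 mouse promoters of the same length, 18.7% held at least 1 match, and Mobp was the 1 promoter with at least 6. Since the core was chosen with these sequences in view, that rank is a description and no test. Of the other members whose promoters were used, Cldn11, Olig2 and Pdgfra held 0 matches, and Mag held 1 or 0 depending on its start. Mbp was left out of these matches by choice, and Olig1 had no entry. CAGCTG, an E-box of the kind bound by basic helix-loop-helix factors and its own reverse complement, had 0 matches in any of these member promoters, against 16.3% of all promoters. A match is a description of letters and not a binding site.

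A transcript stretch of Mag also bears on the results. Exon 12 of transcript Mag-203 (chr7:30900352-30900396, minus strand, GRCm38 as in the GENCODE M21 annotation) has 45 bases. Its inclusion gives the short form of the protein, S-MAG, because the exon carries a stop codon, shown in capitals.
Mag exon 12: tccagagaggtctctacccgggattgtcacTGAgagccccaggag
The stop codon lies after 30 bases of the exon.

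Levels are given in TPM (a length-corrected share of all transcripts of a library, scaled to the same total in each), summed over the transcripts of a gene. A gene was tested if it reached 1 TPM in at least 3 of the 9 libraries, and all 9 members passed with 17080 genes in all. The deposited coverage amounts to 4.40 to 4.92 gigabases assigned to transcripts in the MCAO libraries and 2.70 to 2.87 in the sham libraries. Small structural RNAs took under 1% of TPM in each MCAO library and 46.3 to 52.1% in sham libraries. Mitochondrial transcripts took 22.6 to 28.9% in MCAO and 0.277 to 0.577% in sham libraries. A share-based unit moves with such classes: the median gene was 0.56 higher on the log2 scale in control oligo than in sham libraries. Changes against sham are therefore also given after median-ratio scaling, which put that median at 0.01. Library knockdown 4 stood apart in its neutrophil and monocyte markers, whose summed level was 1422 TPM there, against 84.4 and 97.4 TPM in knockdown 2 and 3, 43.4 to 326 TPM in control oligo and 11.6 to 22.0 TPM in sham libraries.

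The cortical excitatory neuron marker Slc17a7 reached at least 213 TPM in each library. In bulk tissue, fewer cells of a type and less RNA per cell cannot be told apart.

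Knockdown of eRNA_06347 before MCAO was set against the control oligonucleotide to ask whether these genes differ between the groups. None of the 9 genes passed the test at an adjusted p under 0.05 (limma on log2(TPM + 1), Benjamini-Hochberg over all genes), against a background of 0.0117% of genes called. At an unadjusted p under 0.05 the count of members was also 0, where 1.88% of genes had such a p. No member had groups that did not overlap, which was the case for 5.4% of all genes. The fitted differences ran between −0.18 for Pdgfra and 0.27 for Olig2.

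Olig2 had 17.9, 18.9 and 11.7 TPM in knockdown libraries, against 11.1, 15.3 and 12.9 TPM in control oligo libraries. Knockdown 2 and 3 lay above all control oligo libraries and knockdown 4 lay between them. The log2 difference was 0.27 ± 0.24 (SE, n = 3 each), with an unadjusted p of 0.30 in the limma fit. Without knockdown 4 the difference was 0.47 and did not pass either.

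Pdgfra had 8.32, 9.75 and 14.2 TPM in knockdown libraries, against 9.41, 14.5 and 12.6 TPM in control oligo libraries. The highest value of either group was nearly the same and the groups overlapped. Its log2 difference was −0.18 ± 0.27 (SE), and −0.38 without knockdown 4.

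Cldn11 had 69.9, 76.7 and 114 TPM in knockdown libraries, against 76.1, 58.6 and 88.0 TPM in control oligo libraries. The high value was that of knockdown 4. Without that library the difference was −0.00034, against 0.21 ± 0.24 (SE) with it.

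The remaining 6 members differed by −0.08 to 0.11. Mbp averaged 161 ± 29.5 TPM in knockdown and 169 ± 19.6 TPM in control oligo libraries (SD, n = 3 each), and Mobp 332 ± 76.3 TPM in knockdown and 343 ± 111 TPM in control oligo libraries. Olig1 averaged 29.9 ± 2.62 TPM in knockdown and 29.2 ± 10.5 TPM in control oligo libraries, so its means were close while its spread was wider with the control oligonucleotide. With SEs of 0.18 to 0.27 for the 9 members, a p that misses the threshold does not show that the groups were alike.

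**Figure D1:**
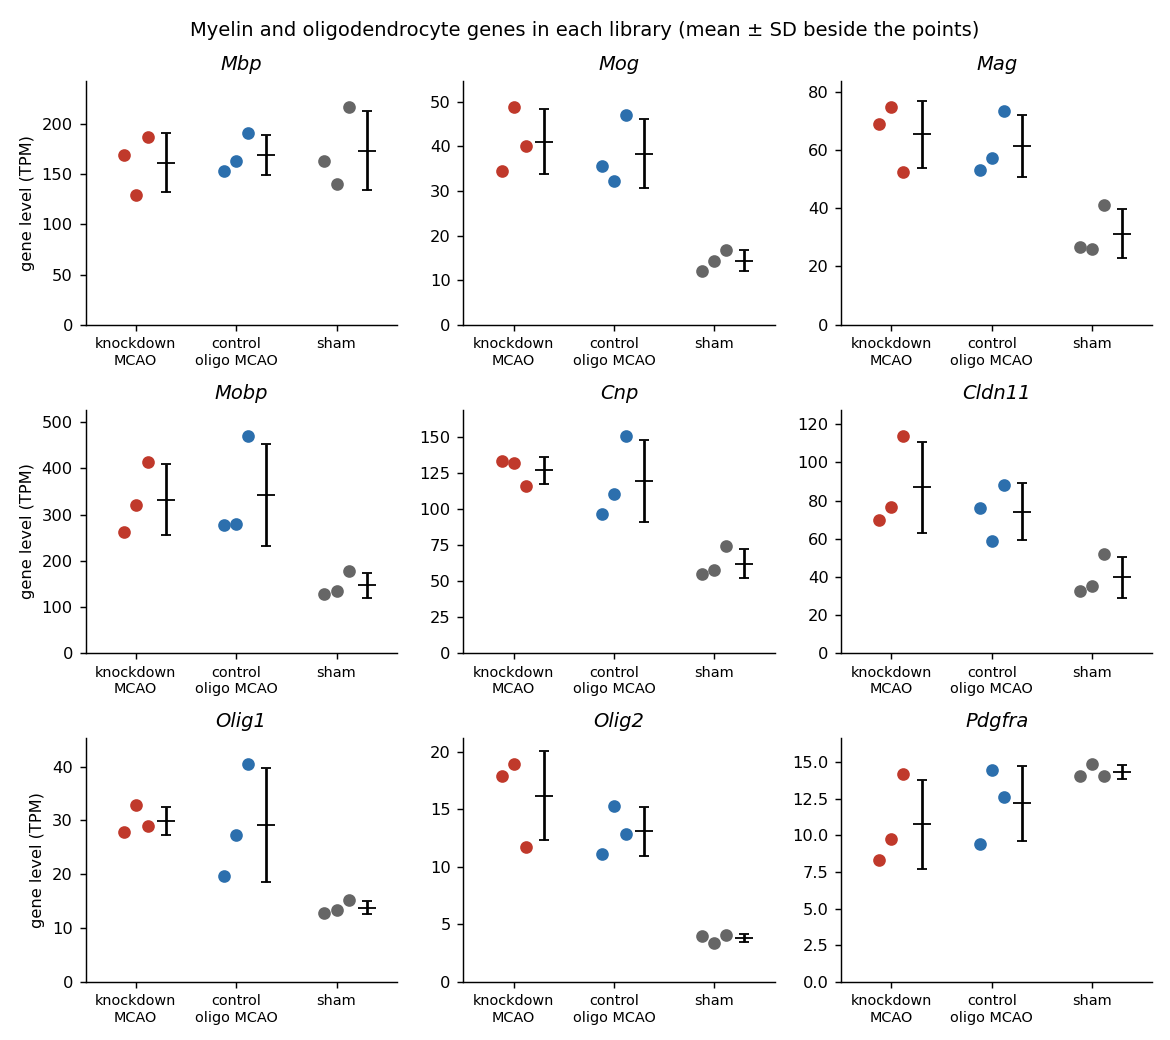
Gene level in TPM (vertical axis, linear from 0) of each of the 9 genes in knockdown MCAO, control oligo MCAO and sham libraries; each point is 1 library and the bar beside it is the mean ± SD of 3. Knockdown and control oligo points overlap in every panel, while the sham points lie below both MCAO groups for 7 genes and not for Mbp and Pdgfra.

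Within groups, single libraries often held the highest values of several members. Control oligo 3 held the highest value of its group for 7 of the 9 members, namely Mbp, Mog, Mag, Mobp, Cnp, Cldn11 and Olig1. Sham 3 held the highest value of its group for 8 of 9, all but Pdgfra. The knockdown libraries were split: knockdown 3 was highest for Mog, Mag, Olig1 and Olig2, knockdown 4 for Mbp, Mobp, Cldn11 and Pdgfra, and knockdown 2 for Cnp.

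The control oligo MCAO libraries were set against sham to ask how these genes stand in the infarcted cortex after 6 h of reperfusion. Mog, Mag, Mobp, Cnp, Cldn11, Olig1 and Olig2 rose, and Mbp and Pdgfra did not pass, so 7 of 9 members were called. The background was high, since 65.4% of all genes were called, with 52.6% higher and 12.8% lower. After median-ratio scaling 2 members were higher (Olig2 and Mog) and 2 lower (Mbp and Pdgfra), with 26.1% of all genes called higher and 29.2% lower. The calls of Mbp, Pdgfra, Mag, Mobp, Cnp, Cldn11 and Olig1 thus differed between the scales, while Olig2 and Mog were higher on both.

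Olig2, which is needed for oligodendrocyte specification, had 11.1, 15.3 and 12.9 TPM in control oligo libraries, against 3.99, 3.39 and 4.03 TPM in sham libraries. The groups did not overlap, as was the case for 70.4% of all genes. The log2 change was 1.54 ± 0.18 (SE, limma adjusted p = 0.000143) and 0.98 after scaling (adjusted p = 0.00164). On all of its exons but the last Olig2 did not pass in either comparison with sham (0.60, adjusted p = 0.205 in control oligo, and 0.82, adjusted p = 0.123 in knockdown).

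Mog had 35.6, 32.3 and 47.1 TPM in control oligo libraries, against 12.0, 14.2 and 16.7 TPM in sham libraries. Here too no sham library reached a control oligo one. The log2 change was 1.35 ± 0.19 (SE, limma adjusted p = 0.00038) and 0.72 after scaling (adjusted p = 0.0362).

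Mobp, the most abundant member in the MCAO libraries, had 278, 279 and 471 TPM in control oligo libraries, against 128, 135 and 177 TPM in sham libraries. The groups did not overlap. Its log2 change of 1.19 (limma adjusted p = 0.00175) was 0.52 after scaling, which did not pass (adjusted p = 0.171).

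Cnp had 96.5, 111 and 151 TPM in control oligo libraries, against 55.1, 57.7 and 74.2 TPM in sham libraries. Cnp overlaps Dnajc7, a co-chaperone gene on the opposite strand with 124 to 177 TPM in control oligo and 49.4 to 69.4 TPM in sham libraries, and the quantification used no strand option, so its level is uncertain. Mag had 53.1, 57.4 and 73.4 TPM in control oligo libraries, against 26.6, 26.2 and 40.9 TPM in sham libraries. Both genes had non-overlapping groups, with log2 changes of 0.92 for Cnp and 0.97 for Mag that became 0.26 and 0.32 after scaling.

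Cldn11 had 76.1, 58.6 and 88.0 TPM in control oligo libraries, against 32.4, 35.0 and 52.0 TPM in sham libraries. Olig1, which acts in oligodendrocyte maturation, had 19.7, 27.3 and 40.5 TPM in control oligo libraries, against 12.8, 13.4 and 15.3 TPM in sham libraries. The log2 changes were 0.89 for Cldn11 and 0.97 for Olig1, and 0.24 and 0.34 after scaling.

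Mbp had 153, 163 and 191 TPM in control oligo libraries, against 163, 140.2 and 217 TPM in sham libraries. The groups overlapped fully. The log2 change was −0.02 ± 0.17 (SE, limma adjusted p = 0.933), and −0.68 after scaling (adjusted p = 0.0385).

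Pdgfra had 9.41, 14.5 and 12.6 TPM in control oligo libraries, against 14.1, 14.9 and 14.1 TPM in sham libraries. Control oligo 1 was the low library, and control oligo 2 lay within the narrow sham range. The log2 change was −0.24 ± 0.18 (SE, limma adjusted p = 0.272), and −0.86 after scaling (adjusted p = 0.00305).

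Knockdown MCAO against sham gave the same 7 calls, in a fit that shares the sham libraries with the one above. The background was 65.3% of genes called, with 52.7% higher and 12.5% lower. The log2 changes ran between 1.03 for Cnp and 1.82 for Olig2 among the 7, and stood at −0.10 for Mbp and −0.42 for Pdgfra. After scaling Olig2 (1.19) and Mog (0.76) were higher and Mbp (−0.82) and Pdgfra (−1.09) lower, where 22.7% of genes were called higher and 27.1% lower. Without knockdown 4, Pdgfra fell by 0.62 without scaling (limma adjusted p = 0.0041), against −0.42 (adjusted p = 0.095) with it. That library was high in neutrophil, fibroblast and endothelial markers alike, and their part in this shift was not tested.

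**Figure D2:**
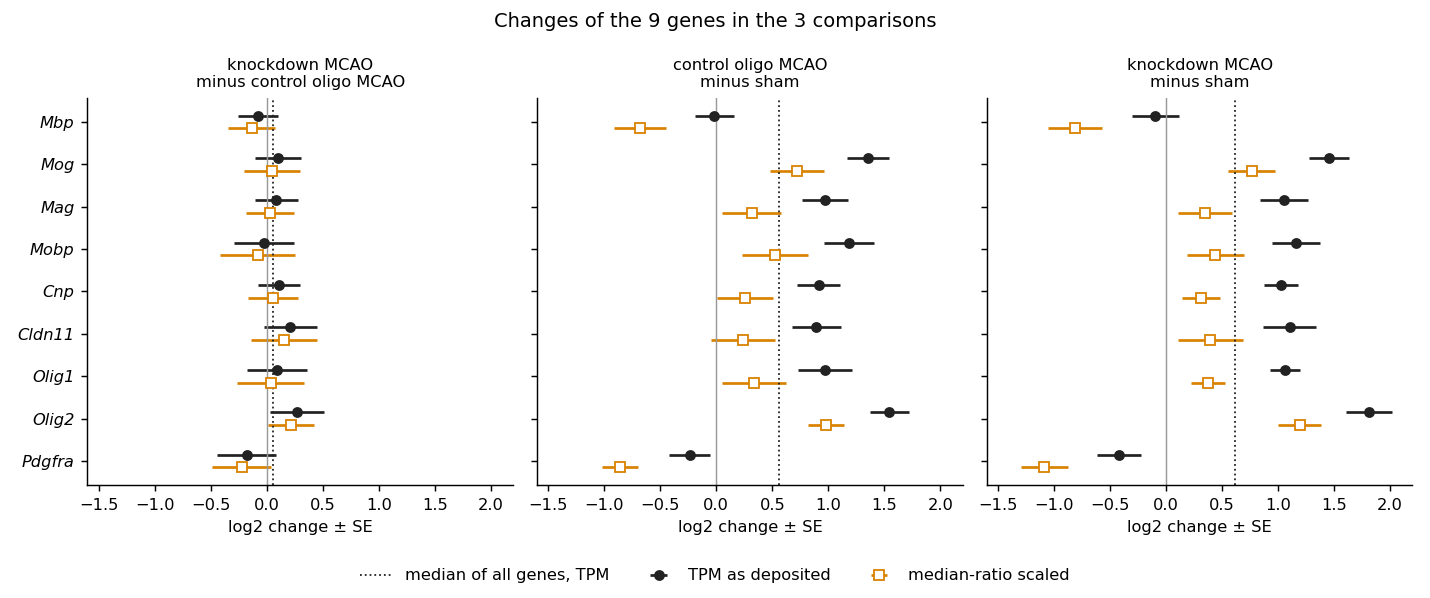
Log2 change ± SE (horizontal axis) of the 9 genes in the 3 comparisons, on deposited TPM (filled circles) and after median-ratio scaling (open squares); the dotted line is the median change of all genes on TPM. Against sham, 7 genes lie right of the dotted line on TPM and Mbp and Pdgfra left of it, and all 9 lie near 0 between knockdown and control oligo.

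Markers of other cell types moved in the same comparison. Of 10 excitatory neuron markers 6 were higher and 2 lower in control oligo than in sham libraries, and of 9 astrocyte markers 6 were higher and 1 lower. The 8 microglia markers gave 7 higher and 1 lower. After scaling the excitatory neuron markers gave 5 higher and 3 lower, the astrocyte markers 2 and 2, and the microglia markers 4 and 1, beside the shares of all genes given above. Summed excitatory neuron markers, without scaling, ranged from 2722 to 2959 TPM in control oligo and from 851 to 984 TPM in sham libraries. Nrgn (1391 to 1481 against 236 to 317 TPM) and Camk2a (734 to 975 against 195 to 262 TPM) made up most of that sum. Rorb (6.25 to 10.4 against 25.4 to 26.7 TPM) and Neurod6 (23.7 to 33.5 against 35.2 to 45.9 TPM) lay lower in control oligo than in sham libraries. The part of tissue makeup in the changes of the members was not tested.

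The level of Mbp hides opposite changes along the gene (chr18:82475146-82585637, plus strand, GRCm38). Its most 3′ exon, exon 7 of transcript Mbp-202, has 1526 bases and makes up most of the mRNA. StringTie, the program that assigned reads to annotated transcripts, gives a coverage for every exon, which was summed over transcripts and put on the TPM scale. Coverage of exons 1 and 7, each taken whole, was lower in every MCAO library than in every sham library. Coverage of exons 2 to 5 was higher, and the groups overlapped on exon 6. Within exon 1 the summed values differed by stretch. The program gives 1 coverage per transcript and exon. Steps inside exon 1 thus lie where transcripts begin and are assignments of the program. By that assignment its last 168 bases had 88.9 to 151 in MCAO libraries and 206 to 335 in sham libraries. The bases of exon 1 before these were assigned higher values in every MCAO library than in every sham library. At its first 7 bases coverage was 27.8 to 56.2 in MCAO and 21.4 to 25.9 in sham libraries. The 143 bases directly before exon 1, which 2 transcripts hold, already had at least 25.8 in MCAO and at most 24.8 in sham libraries. Nearly all coverage of those 7 bases was thus assigned to transcripts that begin before exon 1. The higher MCAO values there are therefore no measure of transcripts that start at exon 1.

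Exon 7 had a coverage of 41.1, 30.6 and 45.4 in knockdown libraries, 55.1, 37.3 and 49.9 in control oligo libraries and 116, 97.6 and 153 in sham libraries. Exon 3, which all classic forms share, had 841, 688 and 1113 in knockdown libraries, 699, 842 and 1129.5 in control oligo libraries and 308, 284 and 456 in sham libraries. On exon 7 every MCAO library lay below every sham library, and on exon 3 every MCAO library lay above.

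Exon 7 thus stood at 4.08 to 4.88% of exon 3 in knockdown libraries, 4.42 to 7.88% in control oligo libraries and 33.7 to 37.7% in sham libraries. The last exon taken alone fell by 1.34 on the log2 scale in control oligo against sham (limma adjusted p = 0.00226), where 5.05% of 14388 genes were called lower on their last exon. The other exons together rose by 0.76 (adjusted p = 0.0213), where 43% of genes were called higher. For knockdown against sham the values were −1.62 (adjusted p = 0.0018) and 0.72 (adjusted p = 0.0367), with 4.59% of genes called lower on the last exon and 48.4% higher on the others. Between knockdown and control oligo they were −0.27 and −0.04, and neither passed, where 0.0278% and 0% of genes were called.

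This pattern was rare among genes and went against the general one. Over 10961 genes, the median ratio of last to other exons was 1.14 to 1.37 in MCAO libraries and 0.91 to 0.945 in sham libraries. The ratio of Mbp was 0.088 to 0.1 in knockdown, 0.091 to 0.164 in control oligo and 0.473 to 0.509 in sham libraries. The log2 difference of its ratio was −2.13 in control oligo against sham, and 1.21% of genes lay lower. In knockdown against sham it was −2.37, and 0.921% of genes lay lower. Small structural RNAs, which differed between the data sets as given above, moved with this pattern, and their part in it was not tested; stroke and data set cannot be told apart in it.

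**Figure D3:**
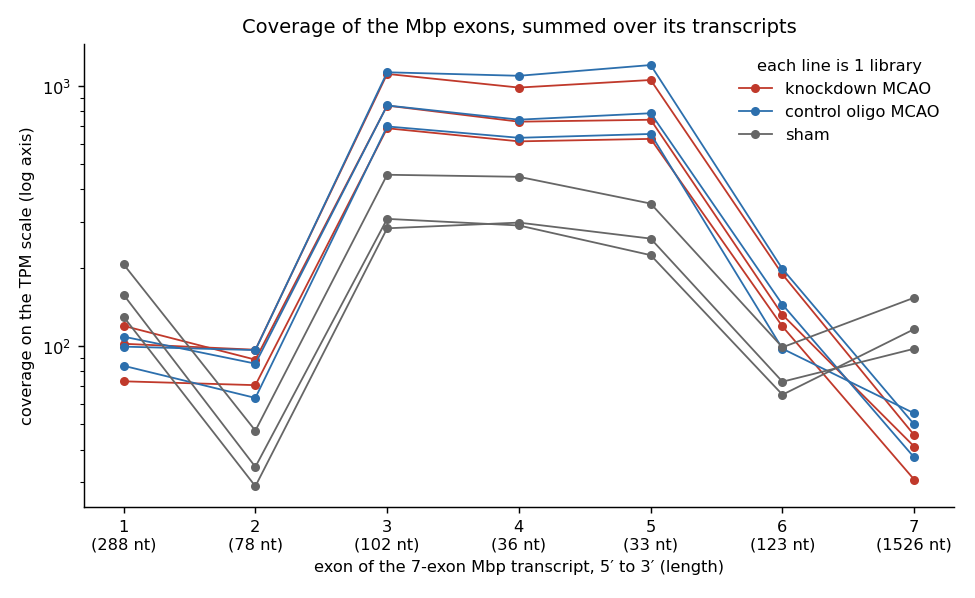
Coverage on the TPM scale (vertical axis, log) of the 7 exons of Mbp in order from 5′ to 3′ (horizontal axis, lengths in nucleotides), 1 line per library of knockdown MCAO, control oligo MCAO and sham. MCAO lines lie above sham lines on exons 2 to 5 and below them on exons 1 and 7. Exon 1 is drawn as a whole, and by the program's assignment to transcripts only its last 168 bases were lower in MCAO libraries.

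In no other member did the last exon fall while the other exons rose. The ratio of last to other exons changed by −0.08 (Mobp) to 1.04 (Olig2) on the log2 scale in control oligo against sham, and between 26.2% and 76.8% of genes lay lower than each of these 7. Olig1 has a single exon. In 3 of these members the parts gave unlike calls in control oligo against sham. Olig2 passed on its last exon (1.58, limma adjusted p = 0.000622), as given above not on the others. Cldn11 also passed on its last exon (1.00, limma adjusted p = 0.00859) and not on the others (0.63, adjusted p = 0.0548), where 55.1% of genes were called higher on the last exon. In knockdown against sham both parts of Cldn11 passed (1.21, limma adjusted p = 0.00642, and 0.83, adjusted p = 0.0463). There 51.5% of genes were called higher on the last exon and 48.4% on the others. For Pdgfra the last exon differed by 0.21 (limma adjusted p = 0.331) while the other exons fell by 0.69 (adjusted p = 0.0225). Pdgfra other exons had a coverage of 5.94, 9.25 and 6.38 in control oligo libraries, against 12.3, 13.1 and 10.8 in sham libraries, and the groups did not overlap, as for 65.5% of genes on these exons, where 14.2% were called lower. In knockdown libraries they had 5.64, 6.14 and 9.91, with a log2 change of −0.70 against sham (limma adjusted p = 0.0281), where 13.2% were called lower.

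**Figure D4:**
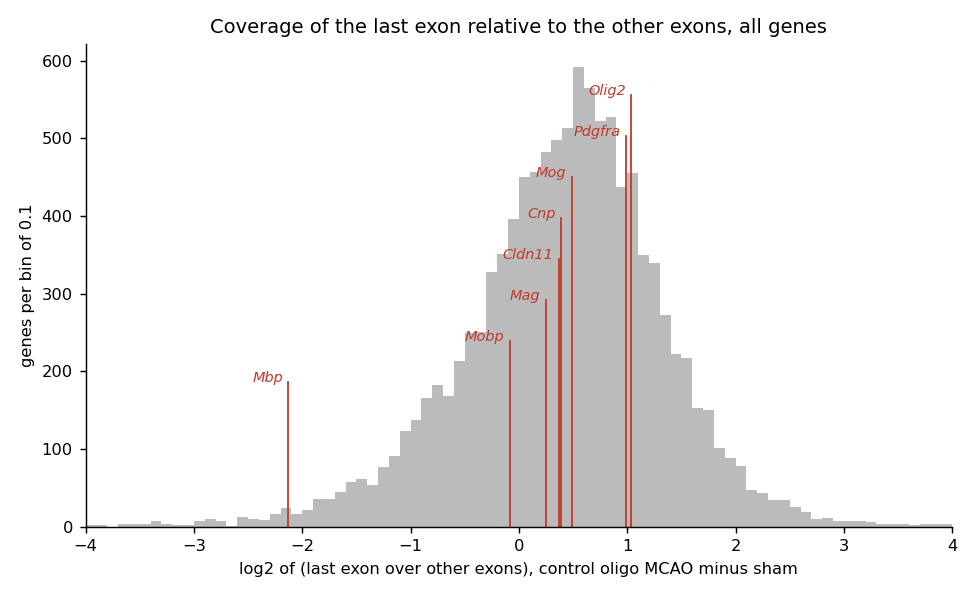
Distribution over 10961 genes of the log2 difference, control oligo MCAO minus sham, in the ratio of last-exon to other-exon coverage (horizontal axis; bars count genes per bin of 0.1), with red lines at the 8 members that have several exons. Mbp at −2.13 lies in the lower tail, and the other 7 lie between −0.08 and 1.04.

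Alternative exons of Mbp changed far less than its ends. Exon 2, which distinguishes the early-expressed forms that can enter the nucleus, stood at 8.69 to 10.5% of exon 3 in knockdown, 8.54 to 10.2% in control oligo and 10.2 to 11.1% in sham libraries. Exon 6 stood at 15.7 to 17.3% in knockdown, 13.96 to 17.5% in control oligo and 21.1 to 25.7% in sham libraries, a lower range in MCAO with no overlap. Exon 5 stood at 88.2 to 94.8% in knockdown, 93.3 to 107% in control oligo and 72.5 to 91.3% in sham libraries. With 3 against 3 libraries an exact permutation test of such a ratio cannot go below 0.1.

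StringTie nevertheless assigned the Mbp reads to different transcripts in the data sets. Mbp-211 had 69.3, 57.9 and 94.6 TPM in knockdown libraries, 82.6, 64.7 and 109 TPM in control oligo libraries and 2.16, 3.12 and 2.39 TPM in sham libraries. Mbp-210 had 16.1, 6.42 and 12.9 TPM in knockdown libraries, 8.77, 14.6 and 14.5 TPM in control oligo libraries and 124, 103 and 165 TPM in sham libraries. The log2 changes in control oligo against sham were 4.58 for Mbp-211 and −3.28 for Mbp-210 (limma over 39894 transcripts, adjusted p = 0.0001 and 0.0006), and both passed after scaling.

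Exon coverage did not show a switch of that size. Mbp-211 holds exon 5 and lacks exon 6, and Mbp-210 holds exon 6 and lacks exon 5. Classic transcripts with exon 5 took 86.0 to 91.5% of classic Mbp TPM in control oligo libraries and 12.2 to 15.4% in sham libraries, whereas exon 5 itself stood at 72.5% or more of exon 3 in every sham library. Classic transcripts with exon 6 took 92.4 to 95.6% in sham libraries, whereas exon 6 stood at 25.7% of exon 3 at most. The transcript values of Mbp are therefore assignments of the program, in a gene whose 11 classic transcripts share most of their bases.

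Mbp also has an upstream start, far before the classic one, whose products are the Golli proteins of neurons, precursors and immune cells. Its 4 transcripts summed to 51.5, 34.9 and 33.2 TPM in knockdown libraries, 37.5, 45.9 and 25.5 TPM in control oligo libraries and 21.9, 17.4 and 20.9 TPM in sham libraries. Those sums are again assignments of the program, and the upstream exons themselves did not all follow them. The 76-base exon that all 4 upstream transcripts hold had a coverage of 21.2, 16.2 and 9.14 in knockdown libraries, 11.9, 12.4 and 7.63 in control oligo libraries and 16.9, 17.2 and 17.0 in sham libraries. Every control oligo library lay below every sham library there, and the knockdown libraries lay on both sides of sham. The 3953-base 3′ stretch that Mbp-205 alone holds had 42.3, 29.4 and 26.8 in knockdown libraries, 33.2, 39.6 and 21.2 in control oligo libraries and 18.7, 14.0 and 16.9 in sham libraries. On that stretch every MCAO library lay above every sham library. It makes up most of the 4797 bases of Mbp-205. In the classic transcript Mbp-202 it lies between exons 1 and 2, so reads from unspliced classic RNA would count there too. Their part in these values was not tested. Mbp-205, the main one by TPM, rose by 0.84 in control oligo against sham (limma adjusted p = 0.047) but by 0.14 after scaling, which did not pass.

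Of the 31 member transcripts kept, 15 were higher and 1 lower in control oligo against sham, where 27.7% of all transcripts were called higher and 7.61% lower. After scaling 5 were higher (Mobp-201, Mobp-202, Mbp-211, Mag-207 and the single Olig2 transcript) and 2 lower (Mbp-204 and Mbp-210), where 11.3% and 15.1% of all transcripts were. In knockdown against sham 17 were higher and 2 lower, where 26.5% were called higher and 7.5% lower. After scaling these counts were 5 and 3, where 9.69% and 13.7% were. None was called between knockdown and control oligo, where 0.0677% of all transcripts were.

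Mobp changed in its transcript makeup as well. Mobp-202 had 49.0, 58.0 and 57.1 TPM in knockdown libraries, 50.02, 49.8 and 71.1 TPM in control oligo libraries and 5.12, 5.55 and 6.29 TPM in sham libraries. It took 13.8 to 18.8% of the gene in knockdown, 15.1 to 18.0% in control oligo and 3.55 to 4.10% in sham libraries, with no overlap. Its log2 change was 3.11 in control oligo and 3.07 in knockdown against sham (limma adjusted p = 0.0003 and 0.0002), and 2.43 and 2.37 after scaling. The most abundant form was Mobp-204, which GENCODE M21 classes as a target of nonsense-mediated decay, at 73.2 to 77.6% in knockdown, 73.4 to 79.2% in control oligo and 88.4 to 91.9% in sham libraries.

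Mag-207 was the Mag transcript that rose on both scales. It had 8.68, 10.95 and 9.37 TPM in knockdown libraries, 19.7, 8.37 and 11.9 TPM in control oligo libraries and 1.58, 1.45 and 0.82 TPM in sham libraries. The log2 change in control oligo against sham was 2.59, and 2.07 after scaling (limma adjusted p = 0.003 and 0.0097). Exon 12, the S-MAG exon printed above, stood at 77.8, 74.4 and 54.8% of exon 11 in knockdown libraries, 85.1, 76.5 and 96.6% in control oligo libraries and 49.3, 81.4 and 51.5% in sham libraries. The groups overlapped on it. Other Mag transcripts swung between libraries of a group, as Mag-204 did at 0.00, 9.39 and 5.42 TPM in control oligo libraries.

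**Figure D5:**
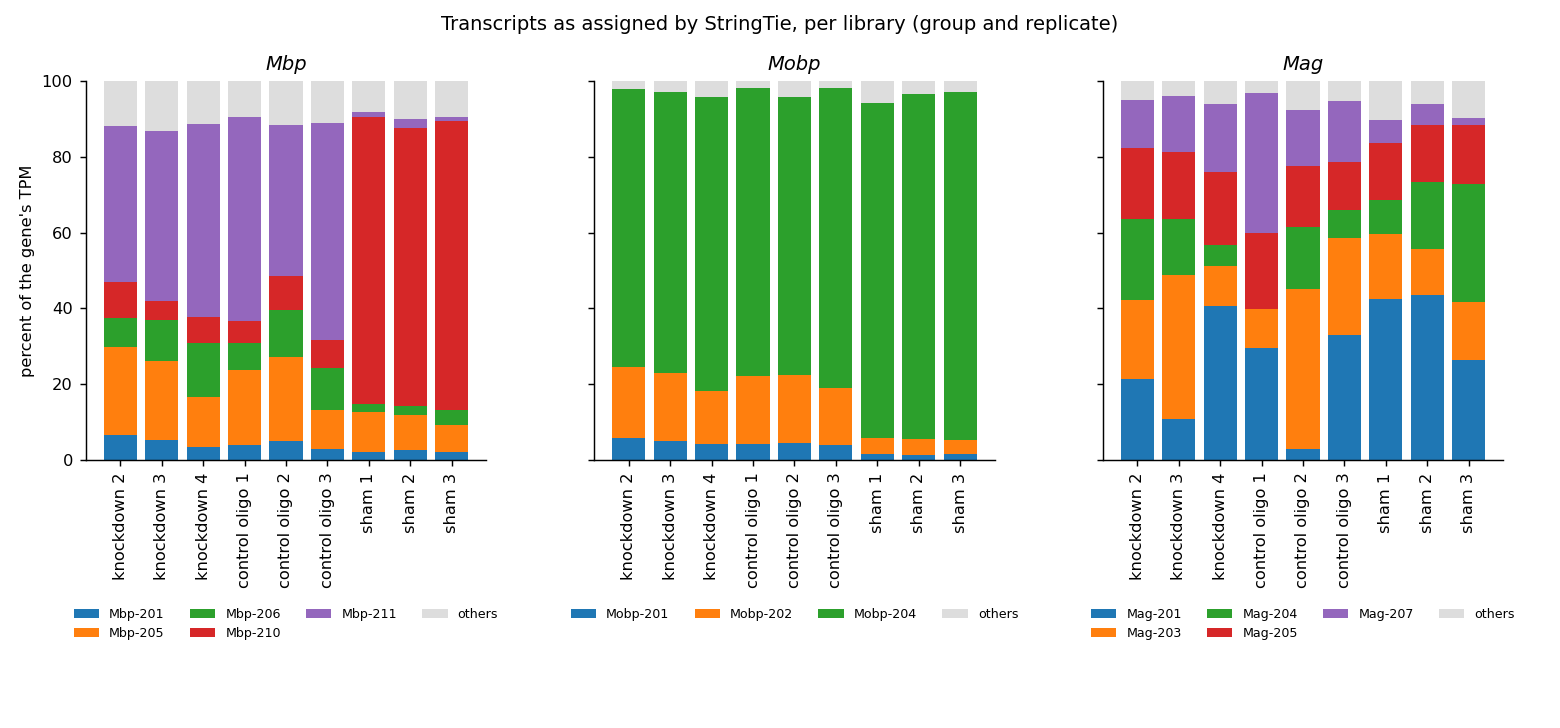
Percent of the gene's TPM (vertical axis) that StringTie assigned to each transcript of Mbp, Mobp and Mag in each library (horizontal axis, knockdown, control oligo, sham), with transcripts under 5% in every group pooled as others. Mbp-211 fills the place in MCAO libraries that Mbp-210 has in sham libraries, and Mobp-202 takes a larger share in every MCAO library than in any sham library.

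The genes around the members in the lineage were taken as lists. In control oligo against sham 52.6% of all genes were called higher and 12.8% lower, and 26.1% and 29.2% after scaling. In knockdown against sham these shares were 52.7% and 12.5%, and 22.7% and 27.1% after scaling. A list count near these shares shows nothing particular to the list. Of 40 mature oligodendrocyte genes, 26 were higher and 1 lower in control oligo than in sham libraries, with a median log2 change of 0.66 against 0.56 over all genes. After scaling 10 were higher and 3 lower, with a median of 0.15 (0.01 over all genes). In knockdown against sham 23 were higher and 0 lower, but 8 higher and 6 lower after scaling, and none passed between knockdown and control oligo. Pllp, a myelin membrane protein, averaged 19.8 ± 1.29 TPM in control oligo and 5.50 ± 0.79 TPM in sham libraries (SD, n = 3 each). Its log2 change was 1.68, and 1.09 after scaling.

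Newly formed oligodendrocyte genes gave 6 higher and 1 lower of 11 kept in control oligo against sham, and 1 and 1 after scaling. All genes had 52.6% higher and 12.8% lower, and 26.1% and 29.2% after scaling. Bcas1, a marker of early myelinating cells, averaged 69.1 ± 19.6 TPM in control oligo and 23.3 ± 7.79 TPM in sham libraries (SD, n = 3 each), a change that did not pass after scaling (limma adjusted p = 0.0522). Of 18 precursor genes 7 were higher and 0 lower, but 2 higher and 6 lower after scaling. Cacng4, an auxiliary subunit of AMPA receptors, averaged 12.8 ± 2.03 TPM in control oligo and 3.21 ± 0.20 TPM in sham libraries. Its log2 change was 1.70, and 1.15 after scaling (limma adjusted p = 0.00074). On all of its exons but the last it was 0.48 and did not pass (limma adjusted p = 0.063). Cacng4 was named for its small p before scaling, and the 6 precursor genes lower after scaling are not named here.

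Regulators of oligodendrocyte differentiation gave 18 higher and 2 lower of 32 in control oligo against sham, and 7 and 7 after scaling. These counts stand beside 52.6% and 12.8% of all genes, and 26.1% and 29.2% after scaling. Sox10, the transcription factor that switches on myelin genes, averaged 17.5 ± 0.96 TPM in knockdown, 14.7 ± 3.00 TPM in control oligo and 3.89 ± 0.55 TPM in sham libraries. Myrf, which acts with Sox10 to drive myelination, averaged 8.36 ± 2.46 TPM in knockdown, 8.33 ± 1.91 TPM in control oligo and 1.69 ± 0.12 TPM in sham libraries. Both rose on both scales, by 1.67 (Sox10) and 1.77 (Myrf) in control oligo against sham and by 1.10 and 1.29 after scaling. Zeb2, a repressor that promotes differentiation by blocking inhibitory signals, moved the other way. It averaged 37.1 ± 9.21 TPM in knockdown, 23.7 ± 4.25 TPM in control oligo and 66.1 ± 4.35 TPM in sham libraries. In control oligo against sham it fell by 1.45 on the log2 scale, and by 2.10 after scaling. The difference between knockdown and control oligo did not pass.

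The 6 other ligand and receptor genes of the PDGF family, to which Pdgfra belongs, gave 5 higher and 0 lower in control oligo against sham, and 1 higher after scaling. Among all genes 52.6% were higher and 12.8% lower, and 26.1% were higher after scaling. Pdgfb, a ligand made by endothelial cells among others, averaged 33.8 ± 8.81 TPM in knockdown, 32.7 ± 3.73 TPM in control oligo and 7.71 ± 0.66 TPM in sham libraries. It rose by 1.95 in control oligo against sham and by 1.33 after scaling. Pdgfa, the ligand that acts on precursors through Pdgfra, averaged 29.8 ± 9.24 TPM in control oligo and 15.7 ± 1.49 TPM in sham libraries, and its rise did not pass after scaling (limma adjusted p = 0.29).

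The genes whose profile over the 9 libraries was most like the mean profile of Mbp, Mog, Mag, Mobp, Cnp and Cldn11 were sought among the 17080 genes, members left out. Likeness was the root mean square difference of centred, scaled log2(TPM + 1). The 5 nearest were Tmem88b (0.119), 1700123O20Rik (0.120), Mal (0.125), Gm9396 (0.134) and C1ql1 (0.137), against a median of 0.47 over all genes. Mal, a membrane protein of myelin, had 105, 138 and 133 TPM in knockdown libraries, 116, 95.1 and 143 TPM in control oligo libraries and 49.3, 53.9 and 67.4 TPM in sham libraries. Its highest control oligo and sham libraries were the third of each group, as for Mbp, Mog, Mag, Mobp, Cnp, Cldn11 and Olig1. Mal was picked for its likeness over these same libraries, so the shared peaks follow from that choice. Of the members themselves Cnp lay nearest to the mean profile (0.114), and Mbp (0.492), Olig2 (0.504) and Pdgfra (0.633) lay farthest. Cnp, Mbp and the other genes that made the mean profile are drawn toward it by construction, unlike Olig1, Olig2 and Pdgfra. Mbp still lay farther from it than the median gene (0.47).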

How the data were processed

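The deposited tables hold, per transcript and exon, the read coverage, FPKM and TPM that the authors obtained with StringTie, which is the measured signal here. Per the submitters' processing notes, HISAT2 2.0 and StringTie 1.3 were the aligner and the quantifier, on GRCm38/mm10, and per the file headers the version was 1.3.4d with the options -e and -B and no strand option. Per the labels' protocols, the MCAO libraries were stranded poly(A) libraries. How the sham libraries were made is not given in the sources used here. Read counts were not used, so no count-based test was run.

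Transcript TPM was summed per gene ID. Each comparison was fitted on its 6 libraries with limma 3.58.1 (R 4.3.3, trended variance) on log2(TPM + 1), without covariates, and called at an adjusted p under 0.05. That pseudocount understates folds of low genes. Exon coverage was summed over transcripts that hold the exon, weighted by base, and multiplied by the TPM per unit of coverage of the library. Last and other exons refer to a gene's most abundant transcript (14388 genes tested). Median-ratio scaling divided each library by the median, over genes, of its ratio to the geometric mean of all libraries. Sequences came from RefSeq promoters (entries for 7 of 9 members, none used for Mbp and Olig1) and GENCODE M21 transcripts. The fit was tested on simulated data. Tables and plots were made in Python 3.11.15 (numpy 2.4.6, pandas 2.3.3, matplotlib 3.10.9).

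Members and lists were chosen with earlier results of these data known. All 9 members were named in each comparison. From each list of lineage genes, up to 4 with the smallest p could be named. Dnajc7 was named because it overlaps Cnp. Some marker genes are not reported here.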

Additional observations from a re-analysis of the deposited data

How the results depend on the processing

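No member passed between knockdown and control oligo under any of the 15 alternatives run. The count of all genes called there was 2, and became 7 with no filter on low values, 4 with one fit over 9 libraries, 0 with the replicate block, 0 with TPM over nuclear protein-coding genes, 4 on the last exon only and 0 on all exons but the last (the exon settings were chosen after seeing the data). It ranged from 1 to 3 with 1 library left out. The count of transcripts was 27, and became 68 with a pseudocount of 0.1, 5 with no filter, 13 with FPKM, 48 with one fit over 9 libraries, 0 with the replicate block and 2 to 15 with 1 library left out. Signs that turned in this comparison were those of Olig1 (−0.13 with the block), Mag (−0.0014 over nuclear protein-coding genes, −0.046 on the last exon) and Mobp (0.033 without the last exon), none of which passed. With 1 library left out the log2 differences ran from −0.19 to 0.075 for Mbp, −0.028 to 0.25 for Mog, −0.015 to 0.24 for Mag, −0.20 to 0.23 for Mobp, −0.029 to 0.29 for Cnp, −0.00034 to 0.35 for Cldn11 and −0.15 to 0.35 for Olig1. They ran from −0.17 to 0.27 for Mbp-205, −0.39 to 0.21 for Mbp-210 and −0.13 to 0.13 for Mobp-202. Of 15 member transcripts compared, 2 had shares of their gene that did not overlap there, Pdgfra-201 (lower in knockdown) and Pdgfra-202 (higher). With shares of coverage times length only Pdgfra-201 remained, so the count was 1. No such count was made over all transcripts, so it has no background. In TPM both transcripts overlapped between the groups and neither passed. Pdgfra-201 averaged 3.06 ± 1.24 TPM in knockdown and 6.53 ± 4.80 TPM in control oligo libraries (SD). Pdgfra-202 averaged 6.19 ± 1.38 and 3.95 ± 3.50 TPM.

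In control oligo against sham 7 members passed, and 4 with median-ratio scaling, 4 with FPKM and 3 with TPM over nuclear protein-coding genes, where 7390 genes were called (3137 higher, 4253 lower). In knockdown against sham 7 passed, and 4 with scaling and 4 over nuclear protein-coding genes, where 6685 genes were called (2601 higher, 4084 lower). Signs turned for Pdgfra on the last exon (0.21) and for Mbp on all exons but the last (0.76, and 0.72 for knockdown). With 1 library left out, Mbp ran from −0.16 to 0.15 for control oligo and from −0.24 to 0.075 for knockdown. The transcripts called ranged from 9234 to 14494 for control oligo and from 8777 to 14409 for knockdown, where the replicate block gave 3779. The lowest counts came without sham 3, and without sham 1 the count for knockdown was 8914. The cause of these moves was not tested.

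Replicate numbers are only shared: knockdown and control oligo have the numbers 2 and 3 in common, with deviations from the group means that correlated at 0.23 and 0.07, and no label says that a number marks a pair. The number of libraries, 3 per group, limits the precision.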
